A study of Rattus norvegicus with 6 samples.

Results

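The prolactin, STAT5 and ELF5 axis was examined as 8 genes in mammary tumors of Fischer 344 (F344) rats, which are inbred. The 8 genes were chosen by symbol from the 26195 rows of the read count table that carry a gene name. They are the receptors Prlr and Ghr, the kinase Jak2, the transcription factors Stat5a, Stat5b and Elf5, and the feedback inhibitors Cish and Socs2. All 8 were present, each as a single row, and all 8 had enough counts to be tested.

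Bulk RNA-seq covered 6 tumors, with tumors 102, 107 and 116 taken from 3 samples of older rats and tumors 157, 158 and 167 from 3 samples of younger ones. The older rats were treated at 21 to 23 months of age and the younger rats at 4 months. The younger rats were bought as virgins from Envigo, and the older rats came from National Institute on Aging colonies. Age and source of the rats therefore cannot be told apart. Rats of both groups received a subcutaneous 50 mg pellet of MPA (medroxyprogesterone acetate, a progestin) that released over 90 days. A single gavage of DMBA, a carcinogen, at 65 mg per kg followed after a week. The sequenced older tumors were those with adequate tissue, and no gland without tumor was included in these libraries. Each comparison is thus between tumors of 2 ages after the same doses of progestin and carcinogen. How long after the pellet each tumor was taken is not given in the sources used here. Totals ran from 3394451 to 6383983 counts over named genes, and 3 counts, taken as the floor, corresponded to between 0.528 and 1.03 CPM (counts scaled to a common library size, with edgeR's TMM correction). Intervals and floors cover counting error only. Each tumor was a single library, and the study describes the tumors as coming from separate rats, which the labels do not state.

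Prolactin binds its receptor on mammary epithelial cells and switches on the kinase JAK2, which phosphorylates STAT5A and STAT5B. These enter the nucleus and, with the ETS factor ELF5, turn on the milk protein genes of the alveolar cell. Growth hormone uses the same kinase and transcription factors through its own receptor. CISH and SOCS2, whose genes are targets of STAT5, bind activated receptors and dampen the signal.

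The tumors expressed defining genes of mammary epithelium. The epithelial markers Epcam, Krt8, Krt18 and Cdh1 together reached 1132 to 1224 CPM in older tumors and 1474 to 1724 CPM in younger ones. This summed level was lower in all older tumors than in all younger ones. Milk protein genes, the classical output of the pathway, were expressed in all 6 tumors, with summed levels of 9 genes from 5913 CPM in younger tumor 167 to 178026 CPM in younger tumor 158. Genes of the pituitary hormones themselves were not detected. Prl and Gh1 had 0 counts in all 6 tumors, which allows up to 3 counts, or 0.528 to 1.03 CPM.

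Across the axis, 0 of the 8 genes differed between older and younger tumors after Benjamini-Hochberg adjustment over 13139 genes (threshold 0.05, quasi-likelihood F test of edgeR). Over all genes tested, 0% were called. Without adjustment 3 of the 8 had a p below 0.05, Prlr (lower in older tumors), Stat5b and Socs2 (both higher), where 8.59% of all genes tested reached that level. None of the 3 stayed so in every fit that left out 1 tumor, and the number was 0 without younger tumor 157, 0 without younger tumor 167 and 5 without younger tumor 158. The median log2 fold change of the 8 genes was 0.50 against 0.00 over all genes tested, with 6 genes above 0 and 2 below. DESeq2, which the study's methods name, also called 0 of the 8, although it gave Socs2 no p-value and so could not call it. It called 2.37% of the genes to which it gave an adjusted p.

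**Figure D1:**
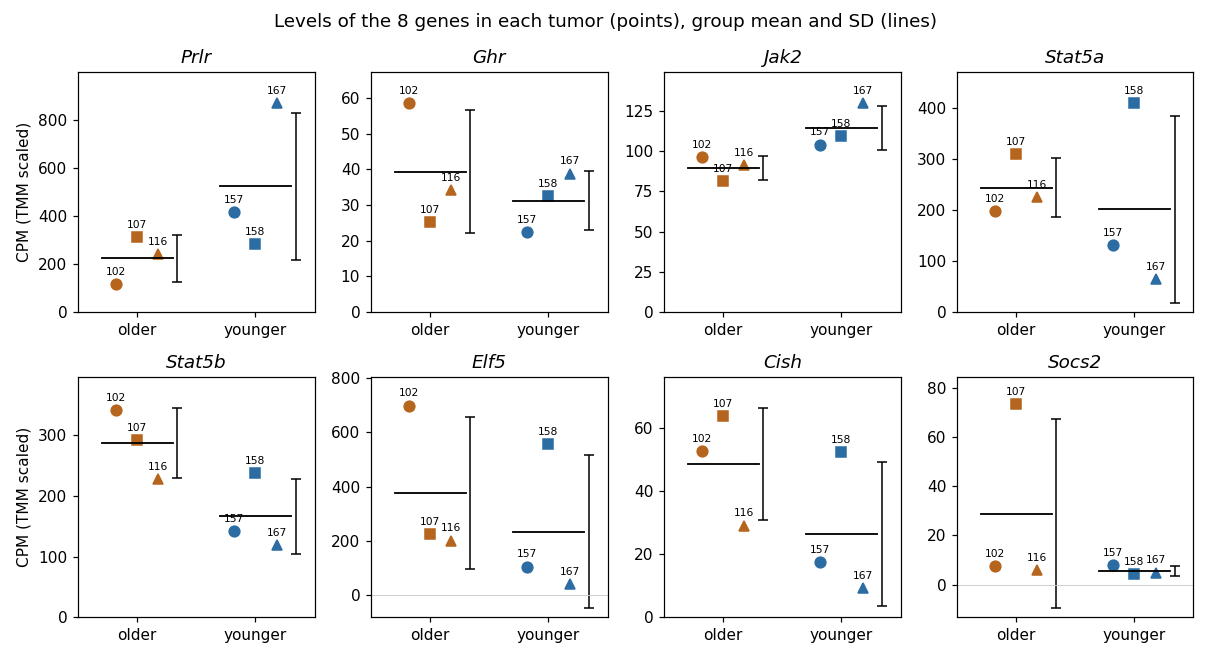
Level of each of the 8 genes in CPM (vertical axis, linear) in the 3 older and 3 younger tumors, with tumor numbers beside the points, horizontal lines at the group means and bars of ± SD. Prlr was highest in younger tumor 167 at 869 CPM, Elf5, Stat5a and Cish were lowest in that tumor, and Socs2 reached 73.3 CPM in older tumor 107 alone.

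The prolactin receptor was the member with the widest difference toward younger tumors. Prlr, which encodes the receptor that starts the cascade, was at 118 CPM in tumor 102, 311 CPM in tumor 107 and 242 CPM in tumor 116 of the older group. In the younger group it was at 416 CPM in tumor 157, 285 CPM in tumor 158 and 869 CPM in tumor 167. The groups overlapped, since older tumor 107 lay above younger tumor 158, and the extremes of the 6 values were older tumor 102 and younger tumor 167. The group means were 223 ± 97.8 CPM in older and 523 ± 306 CPM in younger tumors (SD, n = 3 each), a log2 fold change of -1.23 (SE, the standard error, 0.51; adjusted p = 0.568, edgeR). Without younger tumor 167 the log2 fold change was -0.65. The count does not separate the long and short forms of the receptor that rats make by splicing. In bulk tissue, fewer receptor-bearing cells and less receptor RNA per cell cannot be told apart. The summed level of the 4 epithelial markers was also lower in all older tumors. Of these markers, Epcam and Krt8 were lower in all older tumors, and Krt18 and Cdh1 overlapped. With the mean log2 CPM of the 4 markers as a covariate, the log2 fold change of Prlr was -0.94 (SE 0.999). That mean did not overlap between the ages, so this fit cannot separate it from age. The part of epithelial content in the Prlr difference was not tested.

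Ghr, the growth hormone receptor, varied 2.62-fold across the 6 tumors. It was at 58.5, 25.3 and 34.1 CPM in older tumors 102, 107 and 116 and at 22.4, 32.5 and 38.8 CPM in younger tumors 157, 158 and 167. The groups overlapped and tumor 102 was highest. Older against younger, Ghr had a log2 fold change of 0.33 (SE 0.38; adjusted p = 0.902, edgeR), and without older tumor 102 it turned to -0.073. Tumor 102 also had the highest summed level of adipocyte markers, and adipocytes are known to express Ghr. The summed level of 6 adipocyte markers was 188 CPM there, of which Fabp4 made 134 CPM, and 10.6 to 41.8 CPM in the other 5 tumors. Lep was highest in tumor 107, at 24.9 CPM against 4.11 CPM in tumor 102, and the other markers were highest in tumor 102. Younger tumor 167, with Ghr at 38.8 CPM, had the lowest sum. The part of adipocytes in the Ghr values was not tested.

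Jak2 encodes the tyrosine kinase bound to both receptors. Its levels were 96.2, 81.2 and 91.1 CPM in older tumors 102, 107 and 116, and 104, 109 and 130 CPM in younger tumors 157, 158 and 167. It was the steadiest of the 8 genes, with a 1.6-fold span across tumors, and its standard deviation of log2 CPM stood at the 13.9th percentile of all genes tested. Jak2 was also the only member whose age groups did not overlap, being lower in all older tumors, where 5.61% of all genes tested were lower in all older tumors and 12.1% did not overlap in either direction. Its log2 fold change was -0.35 (SE 0.21; adjusted p = 0.761, edgeR). With library totals in place of TMM the groups overlapped, at 77.8 to 103 CPM in older and 94.9 to 145 CPM in younger tumors.

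Both STAT5 genes had higher means in older tumors, and neither passed the test. Stat5a, which encodes the form best known for its role in alveolar development, was at 198, 310 and 227 CPM in older tumors 102, 107 and 116. In younger tumors it spanned 6.37-fold, from 64.4 CPM in tumor 167 and 132 CPM in tumor 157 to 410 CPM in tumor 158. The 3 older values thus lay inside the younger range, with a log2 fold change of 0.28 (SE 0.61; adjusted p = 0.954, edgeR). It was 1.32 without tumor 158 and -0.15 without tumor 167, so that 1 younger tumor set its direction.

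Stat5b, the form best known downstream of growth hormone in liver, was at 341, 292 and 228 CPM in older tumors 102, 107 and 116. It was at 143, 237 and 119 CPM in younger tumors 157, 158 and 167. Older tumor 116 fell just below younger tumor 158, and the other older tumors lay above all younger ones. The means were 287 ± 57.0 CPM and 166 ± 62.5 CPM (SD, n = 3 each), a log2 fold change of 0.79 (SE 0.33; adjusted p = 0.564, edgeR). Its sign was kept in each fit that left out 1 tumor, from 0.59 to 1.14, and it was 0.18 with the epithelial score (mean log2 CPM of the 4 epithelial markers) as a covariate. With library totals in place of TMM the groups did not overlap, at 257 to 294 CPM in older and 133 to 206 CPM in younger tumors. The share of all genes tested without overlap was not calculated under library totals. Under TMM, 6.49% of all genes tested were higher in all older tumors.

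The balance of the STAT5 genes was compared within each library, where scaling plays no part. Stat5a took 36.7% of the counts of both genes in tumor 102 (Wilson 95% interval 34.3 to 39.1), 51.4% in tumor 107 (49.5 to 53.3) and 49.9% in tumor 116 (47.8 to 51.9). In younger tumors it took 48.0% in tumor 157 (45.5 to 50.5), 63.4% in tumor 158 (61.8 to 64.9) and 35.2% in tumor 167 (31.8 to 38.7). Tumors 102 and 167, of opposite age groups, had the lowest shares, and tumor 158 the highest, each outside the counting intervals of the other 3 tumors. The shares did not separate the ages, with means of 46.0% ± 8.11 and 48.8% ± 14.1 (SD, n = 3 each). An exact permutation test, two-sided, gave p = 1 for this difference, where the smallest possible is 0.1. Stat5a and Stat5b are close copies that lie next to each other in the rat genome, so reads that match both could have been dropped or split in counting, and the 2 levels are uncertain to that extent.

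Elf5 and Cish had large ranges that crossed the age groups. Elf5, the transcription factor that drives the alveolar fate of luminal progenitor cells, was at 698, 226 and 201 CPM in older tumors 102, 107 and 116. In younger tumors it was at 106 CPM in tumor 157, 556 CPM in tumor 158 and 40.8 CPM in tumor 167. The span was 17.1-fold, and the standard deviation of log2 CPM stood at the 96.6th percentile of all genes tested. For age, the log2 fold change was 0.68 (SE 0.92; adjusted p = 0.918, edgeR). It was 2.36 without younger tumor 158 and -0.16 without older tumor 102, the tumors with the highest levels in each group.

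Cish, a direct STAT5 target whose product feeds back on cytokine receptors, was at 52.7, 63.8 and 29.1 CPM in older tumors 102, 107 and 116. It was at 17.4, 52.5 and 9.34 CPM in younger tumors 157, 158 and 167. The groups overlapped through tumor 158, and the tumor with the lowest value, 167, had 38 counts. The log2 fold change was 0.87 (SE 0.62; adjusted p = 0.81, edgeR), and it was 1.85 without tumor 158 and 0.47 without tumor 167.

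Sequence before the start of Cish is shown because STAT5 dimers bind the palindrome TTCNNNGAA, and because Cish is a known direct target. RefSeq windows of 250 bases before the annotated start (assembly GRCr8, from which no other coordinates were used; the counts were made on mRatBN7.2) were found for 6 of the 8 genes, with 2 windows for Prlr. Those for Elf5 and Socs2 were not analysed here. The motif reads the same on both strands. Cish held 4 copies, starting 241, 230, 136 and 119 bases before the start. Of 33469 windows in the table, 7.67% held at least 1 copy and 2 held 4 or more. The second Prlr window held 1 copy, and the windows of Ghr, Jak2, Stat5a and Stat5b held none of these letters. Among milk genes Csn2, Csn1s1 and Csn1s2a each held 1 copy at nearly the same place, starting 97, 100 and 102 bases before the start. Glycam1 held 1 copy farther away, 175 bases before the start, and the other 5 of the 9 milk genes held none. Of the 9 further STAT5 target genes described below, 7 had a window, and 1 of these, Bcl2l1, held the motif. The windows of Cish, Prlr and the 3 casein genes follow from 5′ to 3′, ending at the base before the start, with each copy of the motif in capitals.
Cish, chr8:116850719-116850968, plus strand: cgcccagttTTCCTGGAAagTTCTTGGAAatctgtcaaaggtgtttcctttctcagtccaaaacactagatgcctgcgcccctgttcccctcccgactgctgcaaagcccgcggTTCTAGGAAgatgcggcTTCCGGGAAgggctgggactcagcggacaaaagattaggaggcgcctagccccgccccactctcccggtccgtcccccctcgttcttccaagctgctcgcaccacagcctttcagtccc
Prlr, chr2:60909409-60909658, plus strand: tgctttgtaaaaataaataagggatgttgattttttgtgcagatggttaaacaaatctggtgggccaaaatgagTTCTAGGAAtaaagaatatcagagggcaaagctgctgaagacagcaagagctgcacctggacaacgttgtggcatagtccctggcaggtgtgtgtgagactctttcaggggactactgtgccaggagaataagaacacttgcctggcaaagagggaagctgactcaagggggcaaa
Csn2, chr14:20601574-20601823, plus strand: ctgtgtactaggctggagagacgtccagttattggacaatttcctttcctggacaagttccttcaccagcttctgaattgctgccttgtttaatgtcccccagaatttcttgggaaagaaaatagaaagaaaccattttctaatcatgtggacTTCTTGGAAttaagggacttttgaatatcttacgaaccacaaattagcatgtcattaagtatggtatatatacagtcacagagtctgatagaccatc
Csn1s1, chr14:20638850-20639099, minus strand: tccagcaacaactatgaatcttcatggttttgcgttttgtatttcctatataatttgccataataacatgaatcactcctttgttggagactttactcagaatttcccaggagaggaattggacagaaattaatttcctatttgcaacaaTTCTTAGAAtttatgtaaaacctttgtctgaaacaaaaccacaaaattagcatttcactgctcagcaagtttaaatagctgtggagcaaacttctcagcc
Csn1s2a, chr14:20574472-20574721, minus strand: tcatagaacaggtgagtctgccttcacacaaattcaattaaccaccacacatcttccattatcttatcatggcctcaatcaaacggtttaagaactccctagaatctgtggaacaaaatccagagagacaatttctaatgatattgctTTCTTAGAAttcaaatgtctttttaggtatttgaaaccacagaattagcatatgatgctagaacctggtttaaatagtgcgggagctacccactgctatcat

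All 4 copies in Cish and the copies in Prlr and Csn2 end in GGAA, which is also the core that ETS factors such as ELF5 recognise, so the motifs overlap there. GGAA by itself was present on either strand in 93.2% of all windows and in 5 of the 6 members with a window. A match of letters is a description and not evidence of binding.

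**Figure D2:**
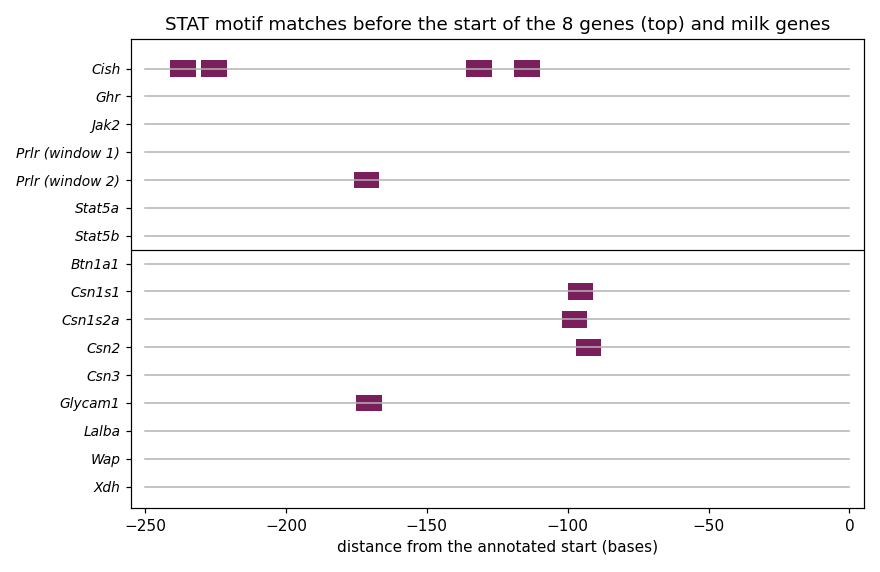
Matches to the STAT motif (filled boxes) in the 250 bases before the annotated start, drawn to scale on the horizontal axis in bases, for the members with a window (top) and the 9 milk genes (bottom). Cish holds 4 matches, and those of Csn2, Csn1s1 and Csn1s2a stand near 100 bases before the start.

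Socs2, the other feedback gene and the member best known as a target of growth hormone, was high in a single tumor. It was at 73.3 CPM in older tumor 107 (324 counts), against 7.53 CPM in tumor 102 and 5.78 CPM in tumor 116. The younger tumors 157, 158 and 167 had 7.92, 4.15 and 4.92 CPM. Apart from tumor 107, the older and younger values overlapped, at 20 to 45 counts each. The log2 fold change of 2.35 (SE 0.97; adjusted p = 0.56, edgeR) was 0.22 without tumor 107. DESeq2 gave Socs2 no p-value. Cish was also highest in tumor 107, but by a small margin, at 63.8 CPM against 52.7 CPM in the next tumor.

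**Figure D3:**
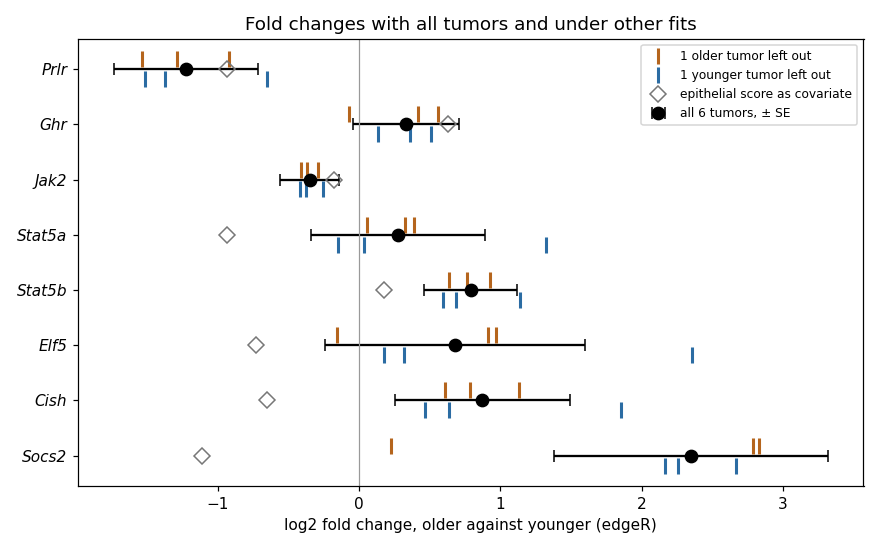
Log2 fold change of older against younger tumors for the 8 genes (horizontal axis) with standard errors for all 6 tumors (black), in the 6 fits that leave out 1 tumor each (ticks, colored by the age group of that tumor) and with the epithelial score as a covariate (diamonds). Ghr, Stat5a and Elf5 cross 0 when 1 tumor is left out, and Stat5a, Elf5, Cish and Socs2 cross 0 with the covariate.

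The genes of the axis were then compared across the 6 tumors irrespective of age. Elf5, Cish, Stat5a and Stat5b were all lowest in younger tumor 167, where Prlr and Jak2 were highest. Correlations of log2 CPM were calculated for 36 pairs among the 8 genes and the milk gene score, the mean log2 CPM of the 9 milk genes. After adjustment over the 36 pairs 0 passed 0.05, and the smallest adjusted p was 0.0612. The points share their libraries, in which milk transcripts took very different parts of the total.

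Cish and the milk gene score had the highest Pearson correlation of the 36 (Pearson r = 0.974, exact permutation p = 0.00556, adjusted p = 0.0612; Spearman rho = 0.829, exact permutation p = 0.0583, adjusted p = 0.3). The Pearson r was 0.95 without tumors 167 and 157, the farthest from the median of Cish. By Spearman rho, Stat5a with the milk gene score, Stat5b with Elf5 and Stat5b with Cish were higher, each at 0.943 (exact permutation, adjusted p = 0.2). The milk gene score was 11.2 in tumor 102, 11.4 in tumor 107 and 11.6 in tumor 158, tumors that all had Cish at 52.5 CPM or more. The score was 9.58 in tumor 116, 9.33 in tumor 157 and 6.96 in tumor 167, which had Cish at 29.1 CPM or less. Tumors of both ages were thus found at the high and the low end.

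Elf5 and Cish had a Pearson r of 0.895 (exact permutation p = 0.0153, adjusted p = 0.0612; Spearman rho = 0.829, exact permutation p = 0.0583, adjusted p = 0.3), which was 0.756 without tumors 167 and 102. Stat5b and Cish had a Pearson r of 0.944 (exact permutation p = 0.00694, adjusted p = 0.0612; Spearman rho = 0.943, exact permutation p = 0.0167, adjusted p = 0.2), which was 0.614 without tumors 167 and 157. Prlr ran the opposite way to Elf5 (Pearson r = -0.903, exact permutation p = 0.0139, adjusted p = 0.0612; Spearman rho = -0.829, exact permutation p = 0.0583, adjusted p = 0.3). That value was -0.582 without tumors 167 and 102, so it rested in large part on those tumors. For Socs2 and Cish the values were lower (Pearson r = 0.462, exact permutation p = 0.332, adjusted p = 0.507; Spearman rho = 0.429, exact permutation p = 0.419, adjusted p = 0.656; r = 0.557 without tumors 167 and 157). With 3 tumors in each age group, correlations within an age could not be tested.

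**Figure D4:**
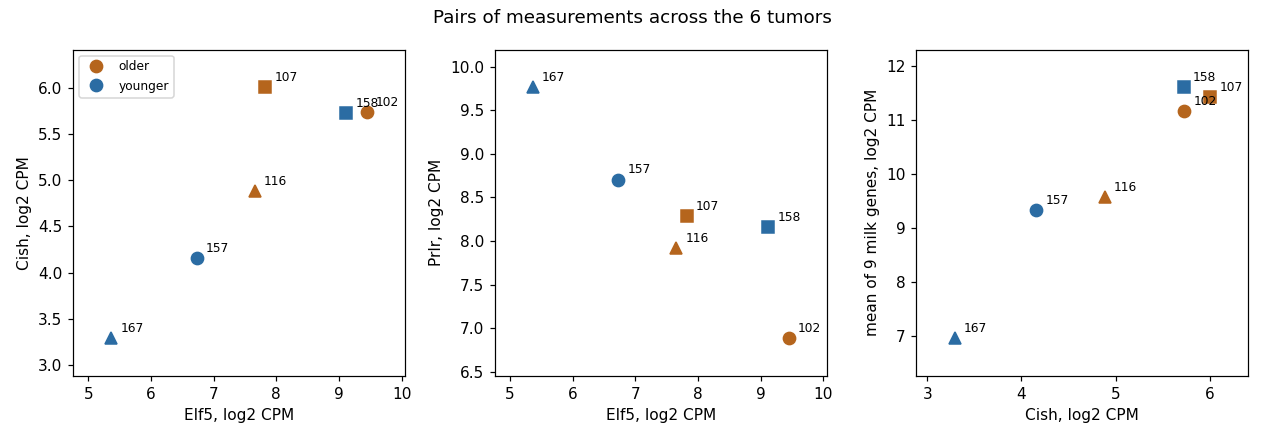
Log2 CPM of Cish against Elf5, of Prlr against Elf5 and of the mean of 9 milk genes against Cish, with a point for each of the 6 tumors, colored by age. Tumor 167 stands at the low end of Elf5, Cish and the milk genes and at the high end of Prlr, and tumors 102 and 158, of different ages, stand together at the high end of Elf5.

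The genes most like Prlr, Elf5 and Cish were sought among 10305 others with a mean of at least 10 CPM, as a description over 6 tumors. Fsbp (Pearson r = 0.998), Dstn, which encodes the actin-severing protein destrin (0.998), and Slc35e2b (0.989) were most like Prlr. Atrnl1 (0.995), Fyb2 (0.994) and Ap2a2, a subunit of the AP-2 clathrin adaptor (0.992), were most like Elf5. Fgd3 (0.991), Gnb4, a G protein beta subunit (0.988), and Fbxo7 (0.987) were most like Cish. With 6 points such values arise among many genes, and 37, 64 and 33 genes had r above 0.95 with Prlr, Elf5 and Cish.

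The milk genes themselves did not separate by age as a group. Of the 9, 5 had log2 fold changes above 0 and 4 below, 0 passed the adjusted threshold with edgeR, and 1 had groups that did not overlap, a share near the 12.1% of all genes tested. That gene was Glycam1, which encodes a mucin-like milk protein, at 4047, 1152 and 86.3 CPM in older tumors 102, 107 and 116 and at 12.8 to 46.0 CPM in younger ones (log2 fold change 5.86, SE 1.33; adjusted p = 0.289, edgeR; adjusted p = 0.0011, DESeq2). In tumor 102 the casein Csn2 was at 110725 CPM while Lalba, the lactose synthase cofactor, was at 16.1 CPM, the lowest of the 6 tumors.

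**Figure D5:**
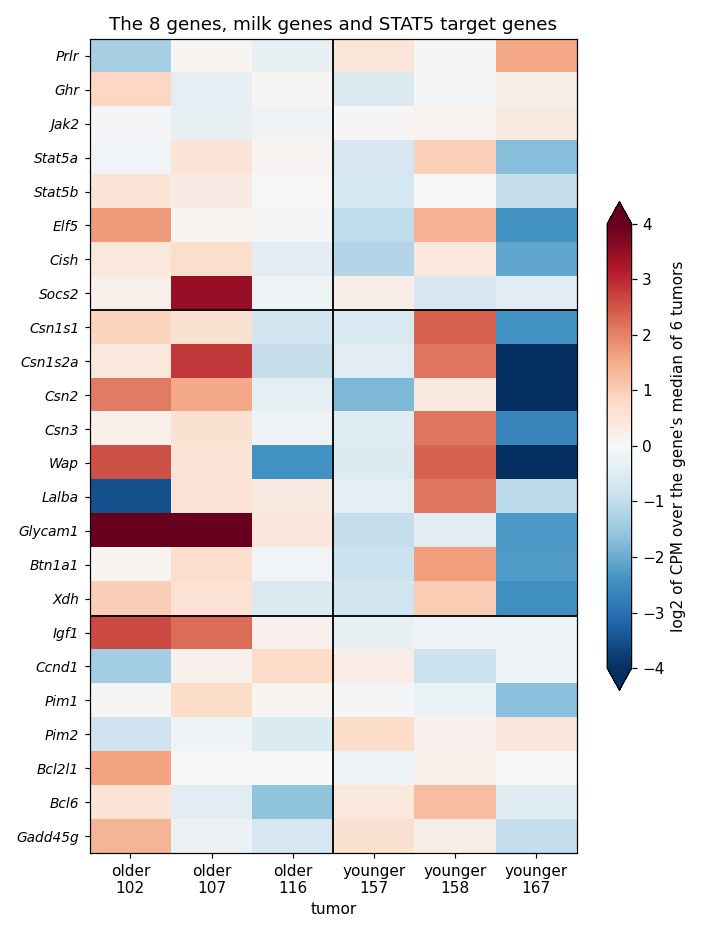
Log2 of CPM over each gene's median of the 6 tumors (color, cut at -4 and 4) for the 8 genes, the 9 milk genes and the 7 tested STAT5 target genes (rows) in older and younger tumors (columns). Elf5, Cish and most milk genes share their low values in tumor 167, and Igf1 is high in older tumors 102 and 107.

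The wider pathway was covered by 39 further genes, of which 37 were in the table and 29 could be tested. Of these, 0 passed the adjusted threshold with edgeR, and 2 had an unadjusted p under 0.05. Age groups did not overlap for 6 of the 29 genes, 5 higher (Socs1, Socs7, Ptpn6, Igf1 and Pim1) and 1 lower (Pim2) in older tumors, where 6.49% of all genes tested were higher and 5.61% lower in all older tumors. Among the other JAK and STAT genes 0 of 5 passed, with the broadly used kinase Jak1 at 226 to 394 CPM and Stat3, the transcription factor of mammary involution, at 206 to 374 CPM. Stat6 was at 1.48 CPM or less in every tumor and could not be tested, while Stat4, a gene known from lymphocytes, was at 94.8 to 398 CPM although the T cell marker Cd3e did not exceed 5.18 CPM. Whether the annotation merged or renamed the rows of Stat4 and Stat6 could not be checked, so both levels are uncertain.

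Of the other SOCS genes, 0 of 6 passed. Socs1, an inhibitor of interferon and cytokine signals, was at 10.95, 19.9 and 10.97 CPM in older tumors 102, 107 and 116. It was at 10.04, 0.541 and 2.70 CPM in younger tumors 157, 158 and 167, where tumor 158 had 3 counts, the level taken as the floor. The older values were all higher, by little in the case of tumor 157, with a log2 fold change of 1.64 (SE 0.86; adjusted p = 0.694, edgeR). Of the phosphatases, PIAS proteins and adaptors that restrain the pathway, 0 of 10 passed, and their median log2 fold change was 0.12. Of the related cytokine receptors, the leptin receptor gene Lepr alone could be tested, at 1.41 to 6.16 CPM.

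Of 9 STAT5 target genes 7 could be tested and 0 passed with edgeR, while DESeq2 called 2, Igf1 and Tnfsf11. Igf1, the growth factor through which growth hormone acts on tissues, was at 72.6 CPM in older tumor 102, 54.3 CPM in tumor 107 and 13.0 CPM in tumor 116. The younger tumors lay close together at 9.33, 10.3 and 10.3 CPM, below all older ones. The log2 fold change was 2.22 (SE 0.58; adjusted p = 0.33, edgeR; adjusted p = 0.0164, DESeq2). Macrophages and stromal cells are known sources of Igf1. The summed level of 4 macrophage markers was also higher in all older tumors, at 106 to 225 CPM against 49.4 to 84.9 CPM in younger ones. Of the 4 markers, 3 were higher in all older tumors and Cd163 overlapped. The part of these cells in the Igf1 difference was not tested.

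Tnfsf11, which encodes RANKL and responds to progestin as well as to STAT5, was at 35.6 and 72.2 CPM in older tumors 102 and 116. It was at 0.905 CPM in older tumor 107 and at 0.492 to 1.08 CPM in younger tumors, with 2 to 6 counts in each of these 4 libraries. It did not pass edgeR's filter on low counts (adjusted p = 0.00011, DESeq2), and older tumor 107 lay within the younger range. Pim2, a survival kinase, was at 3.42 to 5.43 CPM in older and 6.85 to 10.2 CPM in younger tumors, a log2 fold change of -0.95 (SE 0.40; adjusted p = 0.575, edgeR). Cyclin D1, encoded by Ccnd1, overlapped between ages, at 122 to 532 CPM in older and 176 to 391 CPM in younger tumors.

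Luminal progenitor cells are those in which Elf5 is known to act. Their markers summed to 412 to 790 CPM in older tumors, inside the 365 to 1128 CPM of younger ones. Of 7 that could be tested, 6 had log2 fold changes below 0 and 1, Kit, above 0, with a median of -0.68. Among those below 0, Ehf was at -0.012, and Wfdc18 alone had groups that did not overlap. With edgeR 0 of the 7 passed, and DESeq2 called 2. These were Kit, the stem cell factor receptor, which was higher in all older tumors (171 to 294 CPM against 36.6 to 116 CPM; log2 fold change 1.81, SE 0.46; adjusted p = 0.322, edgeR), and Wfdc18, a secreted milk-related protein, which was lower in all of them (0.342 to 1.36 CPM against 5.90 to 13.5 CPM; log2 fold change -3.43, SE 0.60; adjusted p = 0.235, edgeR). Wfdc18 had 1, 6 and 5 counts in older tumors 102, 107 and 116, near or below the floor of 3 counts. Kit and Elf5 did not share an order, since Kit was highest in tumor 116, where Elf5 was below its level in 3 other tumors.

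Other cells differed between libraries as well. Fibroblast markers summed to 977 CPM in tumor 102 and to 100 to 799 CPM elsewhere, and myoepithelial markers to 414 CPM in tumor 102 and 677 CPM in tumor 116 against 1697 to 2478 CPM in the other tumors. Endothelial markers ran from 61.0 to 373 CPM, with tumor 167 lowest and tumor 102 highest, the order of these 2 tumors for Elf5 and Stat5b. Markers of lymphoid cells summed to at most 11.8 CPM for T cells and 21.7 CPM for B and plasma cells, with the B cell gene Ms4a1 at 0 counts in all 6 tumors. Skeletal muscle markers summed to 54.1 CPM in tumor 107, the tumor with the most Socs2, of which Acta1 made 47.3 CPM, and to 5.98 to 25.4 CPM in the other tumors, while Ckm had 0 to 4 counts. The part of these cells in the levels of the 8 genes was not tested.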

How the data were processed

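Bulk RNA-seq of 6 rat mammary tumors, 3 older and 3 younger, was analysed. The authors checked reads with FastQC 0.11.7, trimmed adapters with Trimmomatic 0.38, aligned reads with STAR 2.7.9a to mRatBN7.2, marked duplicates with Picard 2.18.12 and deposited read counts per gene from HTSeq 0.13.5, not normalized. Libraries were depleted of ribosomal RNA (the labels also say polyA RNA, and give reads of 100 bases against 150 in the design text). The annotation, the strand setting and the use of marked duplicates are not given in the sources used here.

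Of 30562 rows, 4367 without a name (2.17% to 3.64% of counts) were left out, and 0 sample columns were unused. Genes passing edgeR's filterByExpr (13139) were fitted over the whole table in R 4.3.3 with edgeR 4.0.16 (TMM, quasi-likelihood, no covariates, threshold 0.05). Standard errors were calculated back from the F statistic, and log2 CPM used a prior count of 2. Alternatives used DESeq2 1.42.0, limma 3.58.1 (voom), other scalings and filters, an epithelial covariate and leaving out each tumor; the fit with unnamed rows kept was chosen after seeing the data. Statistics were tested on simulated data.

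The 8 genes and all gene lists were chosen with earlier results of these data known. Named genes are the 8, list genes with the smallest p, the highest level or groups without overlap, and the 3 genes most correlated with Prlr, Elf5 and Cish; Jak1, Stat3, Stat4, Stat6, Lalba, Csn2, Ccnd1 and Cd3e were singled out with their values seen. All 8 symbols matched RefSeq, and promoter sequences are from its GRCr8 table. Transcript lengths were not used, so levels are compared for the same gene between tumors.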

Additional observations from a re-analysis of the deposited data

How the results depend on the processing

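No paired analysis was possible because no replicate number is shared between the age groups. The number of the 8 genes past the threshold was 0 in all 16 fits. With the DESeq2 Wald test the number of all genes past the threshold moved from 0 to 345 (1128 at an unadjusted p under 0.05 with edgeR), 233 of them higher in older tumors, and that of the wider pathway from 0 to 2; both stayed 0 in the other fits, including those that left out 1 tumor. The epithelial score as a covariate turned the log2 fold change of Stat5a to -0.93, Elf5 to -0.73, Cish to -0.65 and Socs2 to -1.11, and moved Stat5b to 0.18, Jak2 to -0.18 and Ghr to 0.63, each with an adjusted p of 1. With the same covariate the log2 fold change of Prlr was -0.94 (SE 0.999). The epithelial score was 7.73 to 8.18 in older and 8.20 to 8.57 in younger tumors, without overlap, so the covariate and age cannot be told apart. Across the fits that left out 1 tumor, log2 fold changes ranged from -1.54 to -0.65 for Prlr, -0.073 to 0.56 for Ghr, -0.42 to -0.26 for Jak2, -0.15 to 1.32 for Stat5a, 0.59 to 1.14 for Stat5b, -0.16 to 2.36 for Elf5, 0.47 to 1.85 for Cish and 0.22 to 2.83 for Socs2, with the sign turned for Ghr and Elf5 without older replicate 102 and for Stat5a without younger replicate 167. With limma-voom the log2 fold change was 0.67 for Stat5a, 1.26 for Elf5 and 1.46 for Socs2 (unadjusted p = 0.207, limma). No other fit changed a sign, and another prior count moved no difference of mean log2 CPM by more than the spread between tumors. The cause of these changes was not tested.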
